A study of Mus musculus with 6 samples.

Results

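The genes of the enamel matrix and of the proteases that process it were examined in RNA-seq libraries of molar tissue from control mice and from mice lacking *Ror2* in the dental mesenchyme. They were chosen by name, as the secreted proteins of forming enamel (*Amelx*, *Ambn*, *Enam*), the matrix proteases (*Mmp20*, *Klk4*), the proteins of late and junctional enamel epithelium (*Amtn*, *Odam*) and the intracellular protein Fam83h. The rule itself used no measured value, but it was written with earlier results of these data known. All 8 were listed among the 27506 genes of the count table, and all 8 passed the filter on low counts. Control mice were labelled *Ror2fl/fl*, with both copies of *Ror2* floxed and no Cre transgene named. *Ror2* mutant mice were *Osr2-Cre;Ror2fl/fl*, with the same floxed alleles and the *Osr2-Cre* transgene. All were on the C57BL/6 strain and 3.5 days old after birth (P3.5), and 3 libraries were analyzed from each group. The tissue is labelled as dental pulp of the mandibular first molar. By the study's lineage tracing, *Osr2-Cre* acts in dental mesenchyme and alveolar bone and leaves the dental epithelium untouched. The labels do not say whether each library came from a separate animal, so p-values measure only the spread between these libraries, which may be technical.

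Enamel is laid down by ameloblasts, tall cells of the inner dental epithelium that face the dentin-forming odontoblasts of the mesenchyme. In the secretory stage they release amelogenin, ameloblastin and enamelin together with the protease Mmp20, and mineral ribbons lengthen within this protein matrix. In the maturation stage they switch to Klk4, which clears the remaining protein, and to amelotin and Odam, which lie at the cell surface facing the enamel. Loss of function in several of these genes causes amelogenesis imperfecta, an inherited defect of enamel.

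The members sit at 5 places in the mouse genome (GENCODE M21 on mm10). *Odam* (chr5:87885029-87894174), *Amtn* (chr5:88376108-88385916), *Ambn* (chr5:88455991-88468531) and *Enam* (chr5:88487975-88506049) follow each other on the plus strand of chromosome 5, in the cluster of secretory calcium-binding phosphoprotein genes. *Amelx* (chrX:169176114-169187200, minus strand) lies inside the span of *Arhgap6*, a gene of the opposite strand, without overlap of exons. *Mmp20* is at chr9:7628231-7674979 and *Klk4* at chr7:43881160-43885804, both on the plus strand, and *Fam83h* is at chr15:76001093-76014336 on the minus strand. The spans of *Mmp20* and *Fam83h* each overlap a gene of the opposite strand, *AV064505* and *K230010J24Rik*, with 0 shared exon bases. No member shared a stretch of 75 bases, the read length, with the transcripts of another gene.

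The 250 bases before the transcription start are shown for 5 members (*Amelx*, *Ambn*, *Enam*, *Mmp20* and *Odam*), to let their sequences be set beside each other. They are RefSeq sequences of GRCm38.p6, read 5′ to 3′ on the strand of the gene. Capitals mark 4 motifs searched on both strands, namely TATAAA (the TATA box), CCAAT (the CCAAT box), TAATTA (a core bound by homeodomain proteins such as Msx2 and Dlx3) and GGGCGG (the GC box bound by Sp factors).
*Amelx*, chrX:169187210-169187459, minus strand: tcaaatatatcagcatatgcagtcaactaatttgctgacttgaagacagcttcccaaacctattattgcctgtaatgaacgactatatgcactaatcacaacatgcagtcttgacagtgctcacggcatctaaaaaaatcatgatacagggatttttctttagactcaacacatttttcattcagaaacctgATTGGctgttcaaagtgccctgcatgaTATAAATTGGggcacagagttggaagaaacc
*Ambn*, chr5:88455741-88455990, plus strand: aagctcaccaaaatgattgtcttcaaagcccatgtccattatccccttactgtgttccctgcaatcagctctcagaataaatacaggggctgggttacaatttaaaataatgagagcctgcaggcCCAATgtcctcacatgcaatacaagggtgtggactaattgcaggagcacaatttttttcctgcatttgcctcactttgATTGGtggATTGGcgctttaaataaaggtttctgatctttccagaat
*Enam*, chr5:88487725-88487974, plus strand: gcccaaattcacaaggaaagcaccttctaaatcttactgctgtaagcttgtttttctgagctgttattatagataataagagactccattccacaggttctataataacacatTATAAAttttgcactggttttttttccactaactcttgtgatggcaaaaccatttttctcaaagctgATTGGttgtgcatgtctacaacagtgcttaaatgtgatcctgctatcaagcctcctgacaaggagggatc
*Mmp20*, chr9:7627981-7628230, plus strand: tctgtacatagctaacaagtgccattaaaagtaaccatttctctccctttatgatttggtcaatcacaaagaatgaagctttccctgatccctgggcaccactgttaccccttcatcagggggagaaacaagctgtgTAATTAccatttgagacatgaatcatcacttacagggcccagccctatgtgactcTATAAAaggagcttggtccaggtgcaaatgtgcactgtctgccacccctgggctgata
*Odam*, chr5:87884760-87885009, plus strand: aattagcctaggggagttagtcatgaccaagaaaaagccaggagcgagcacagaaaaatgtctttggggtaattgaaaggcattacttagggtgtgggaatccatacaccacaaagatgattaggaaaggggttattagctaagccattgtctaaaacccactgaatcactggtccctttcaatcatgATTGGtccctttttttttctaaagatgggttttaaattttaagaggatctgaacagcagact

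Of the 8 members, 7 had a promoter in the RefSeq table, and *Fam83h* was not matched. In *Amelx* a TATAAA began 31 bases before the start, and the CCAAT match 26 bases before the start, on the other strand, shares a base with it. TATAAA was also found in *Enam*, 137 bases before the start, and in *Mmp20*, 58 bases before it, so that it occurred in 3 of 7 members against 12.3% of 32536 promoters of the same length. CCAAT occurred in 5 of 7, namely *Amelx*, *Ambn*, *Enam*, *Amtn* and *Odam*, against 33.8% of promoters, and *Ambn* held 3 matches. TAATTA occurred in *Mmp20* alone among the 7 (4.84% of promoters), and GGGCGG in 0 of 7 (33.0% of promoters). *Klk4* held none of the 4 motifs. CpG dinucleotides were few, with 0 to 2 in each member against a median of 6. These matches are letters in a window and were not tested as binding sites.

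The libraries held 56134770 to 62628940 estimated counts, and the lowest count of any member in any library was 721, for *Klk4* in control library 1. *Ror2*, the targeted gene, lay between 36.2 and 38.2 CPM (the count relative to the total of its library, scaled by the TMM method) in control and between 26.3 and 28.1 in *Ror2* mutant libraries, a log2 fold change of -0.43 ± 0.085 (SE; edgeR's quasi-likelihood test, p-values adjusted by Benjamini and Hochberg's method, adjusted p = 0.013). As for some of the enamel genes, this call was lost without control library 2 (edgeR, adjusted p = 0.066), without control library 3 (adjusted p = 0.075) and with a replicate block (adjusted p = 0.058). Sample codes in the labels differ between the groups, and control library 1 has a letter code unlike that of the other controls, so a processing batch and the genotype cannot be told apart. In bulk tissue, fewer cells of a type and less RNA per cell cannot be told apart either.

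The labelled tissue is pulp, yet enamel genes were among its most abundant transcripts. *Amelx* had the highest count of all genes in each of the 6 libraries, *Ambn* ranked 2 or 3 and *Enam* 4 to 6. Together the 8 members took 17.4%, 18.0% and 19.0% of all counts in control libraries 1 to 3, and 23.8%, 18.7% and 21.3% in mutant libraries 1 to 3. *Amelx*, *Ambn* and *Enam* alone made up 17.3% to 18.9% in controls and 18.6% to 23.7% in mutants, so the other 5 genes added little to the total. The totals of the groups overlapped (exact permutation test on summed CPM, two-sided p = 0.3).

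**Figure D1:**
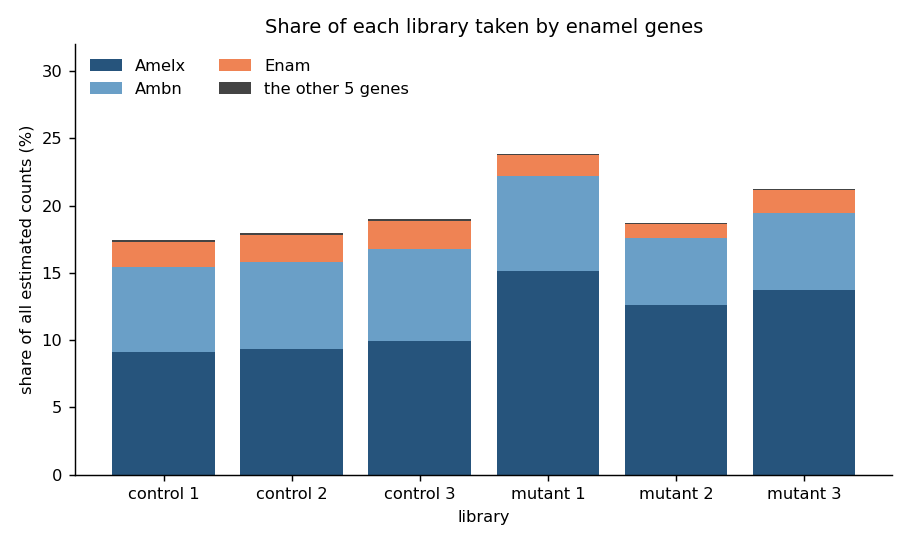
The bars give the share of all estimated counts (%) in each of the 6 libraries taken by *Amelx*, *Ambn*, *Enam* and the other 5 genes together. *Amelx* is the tallest segment in every library, at 9.15% to 9.97% in controls and 12.6% to 15.1% in mutants.

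Counts per kilobase of exon allow the genes to be ranked. In controls, the level fell from *Amelx* (94561 ± 5382 CPM per kb, SD, n = 3) through *Ambn* (33754 ± 2030), *Enam* (3619 ± 267) and *Mmp20* (314 ± 26.7) to *Odam* (148 ± 4.99), *Amtn* (84.9 ± 61.1), *Klk4* (16.5 ± 7.82) and *Fam83h* (7.37 ± 0.478). The secretory-stage genes thus stood first, and *Klk4*, the protease of maturation, stood far below *Mmp20*, the protease of secretion. The order was the same in mutants, where *Amelx* reached 139781 ± 19178, *Enam* 2604 ± 691 and *Fam83h* 9.85 ± 0.713 CPM per kb. Neighbours in this order did not overlap between libraries, with the exception of *Odam* and *Amtn* and of *Amtn* and *Klk4*, which overlapped in controls only.

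Comparing the groups addressed whether enamel genes, made mainly by cells in which *Ror2* is not deleted, differ when the mesenchyme loses *Ror2*. *Odam* fell and *Fam83h* rose in *Ror2* mutants, while *Amelx* was higher and *Enam* and *Mmp20* were lower in every mutant library without passing the test. At an adjusted p under 0.05 in edgeR's quasi-likelihood test, 2 of the 8 members were called, against 20.2% of the 19330 genes tested. The groups did not overlap in 5 of 8, against 44.7% of all genes, with 2 members higher (22.6% of all genes) and 3 lower (22.1%). Neither share stands far from its background, and with 8 genes nothing particular to the members is read from them. The median log2 fold change was -0.38 over the members and 0.0074 over all genes tested.

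Among the matrix genes, *Amelx* encodes amelogenin, which forms the bulk of the secretory matrix. It measured 88628, 99214 and 95556 CPM in control libraries and 160441, 122716 and 135768 CPM in mutant libraries. Every mutant library lay above every control. The means were 94466 ± 5376 and 139642 ± 19159 CPM (SD, n = 3), and the log2 fold change was 0.56 ± 0.21 (SE; edgeR's quasi-likelihood test, adjusted p = 0.085). The call depends on the test, since DESeq2's Wald test gave an adjusted p of 0.0011 and limma voom with sample quality weights one of 0.0063 for the same gene.

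*Ambn* encodes ameloblastin, which holds ameloblasts to the matrix. Its levels were 60637, 68374 and 65309 CPM in controls and 74632, 48613 and 56881 CPM in mutants. Mutant library 1 was the highest of all 6 and mutant library 2 the lowest, so the groups overlapped. The log2 fold change of -0.11 ± 0.22 (SE) did not pass edgeR's test (adjusted p = 0.74), and without mutant library 2 it was 0.032.

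*Enam* encodes enamelin, the largest of the matrix proteins, which is needed at the mineralization front. Controls had 18314, 21230 and 20058 CPM and mutants 16367, 9922 and 16604 CPM. All mutants were below all controls, mutant library 2 by the widest margin. The log2 fold change was -0.47 ± 0.23 (SE; edgeR, adjusted p = 0.16), and it was -0.26 without mutant library 2.

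Of the proteases, *Mmp20* (enamelysin) cuts the matrix proteins during secretion. It measured 952, 1126 and 1021 CPM in controls and 793, 519 and 819 CPM in mutants. The groups did not overlap, and mutant library 2 was again the lowest. The log2 fold change was -0.54 ± 0.19 (SE; edgeR, adjusted p = 0.073), and -0.35 without that library.

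*Klk4*, the serine protease of maturation, had 11.2, 30.7 and 19.9 CPM in controls and 16.4, 17.1 and 17.0 CPM in mutants. The 3 mutant libraries fell within the range of the controls, which spanned 2.74-fold. Its log2 fold change of -0.29 ± 0.30 (SE; edgeR, adjusted p = 0.51) was 0.11 without control library 2.

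*Amtn* encodes amelotin, which is secreted by maturation-stage ameloblasts and junctional epithelium. Its levels were 24.0, 149 and 87.5 CPM in controls and 31.4, 49.0 and 17.6 CPM in mutants. Control libraries 2 and 3 were the highest, and control library 1 lay among the mutants. The log2 fold change was -1.41 ± 0.59 (SE; edgeR, adjusted p = 0.12). With a 6.21-fold range among controls, 1 library decided the call, since the change was -1.86 without control library 1 (edgeR, adjusted p = 0.035) and -0.78 without control library 2 (adjusted p = 0.395).

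*Odam*, the odontogenic ameloblast-associated protein of the same cells, was the steadiest of the members in controls. It measured 206, 209 and 196 CPM in controls and 133, 133 and 152 CPM in mutants. The groups were well apart, at 204 ± 6.86 against 139 ± 11.1 CPM (SD, n = 3). *Odam* fell by 31.6%, a log2 fold change of -0.55 ± 0.10 (SE; edgeR's quasi-likelihood test, adjusted p = 0.012). The call was lost without control library 2 (edgeR, adjusted p = 0.066) and without control library 3 (adjusted p = 0.058).

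*Fam83h* encodes an intracellular protein bound to keratin filaments, and dominant variants of it cause the hypocalcified form of amelogenesis imperfecta in humans. Controls had 36.6, 33.2 and 32.5 CPM and mutants 47.9, 41.8 and 47.0 CPM. No mutant library reached down to the controls. *Fam83h* rose 1.34-fold, a log2 fold change of 0.42 ± 0.10 (SE; edgeR's quasi-likelihood test, adjusted p = 0.023). Leaving out control library 2, control library 3 or mutant library 1 gave adjusted p-values of 0.12, 0.13 and 0.065 in the same edgeR test.

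**Figure D2:**
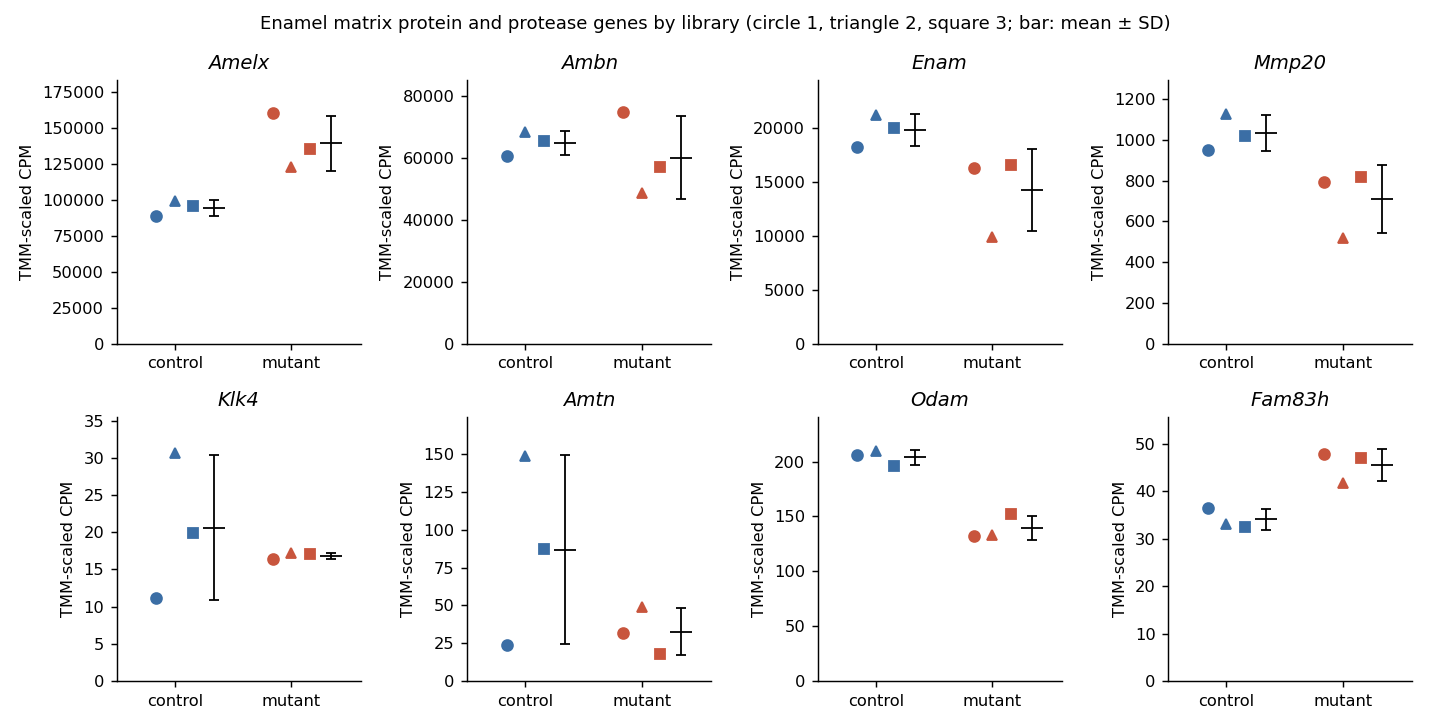
Each panel gives 1 gene in TMM-scaled CPM on a linear axis from 0, with 3 control (blue) and 3 mutant (red) libraries and the mean ± SD as a bar. *Amelx* and *Fam83h* in mutants lie above all controls, *Enam*, *Mmp20* and *Odam* below them, and *Ambn*, *Klk4* and *Amtn* overlap.

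The exact permutation test on a single gene cannot go below a two-sided p of 0.1 with 3 libraries against 3, and each of the 5 members without overlap reached this smallest value. Estimates under 19 other settings kept the sign of *Amelx*, *Enam*, *Mmp20*, *Amtn*, *Odam* and *Fam83h*. The log2 fold change of *Amelx* ran from 0.38 to 0.66, that of *Enam* from -0.68 to -0.18, that of *Mmp20* from -0.74 to -0.31 and that of *Odam* from -0.73 to -0.41. *Odam* was called under 17 of the 19 settings, *Fam83h* under 13, *Amelx* under 6, *Mmp20* under 4, *Enam* and *Amtn* under 2, and *Ambn* and *Klk4* under 0. Adjusted p-values over these settings (edgeR, DESeq2 or limma) ranged from 0.0011 to 0.88 for *Amelx*, from 1.8e-05 to 0.066 for *Odam*, from 0.0031 to 0.29 for *Fam83h* and from 0.035 to 0.395 for *Amtn*.

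**Figure D3:**
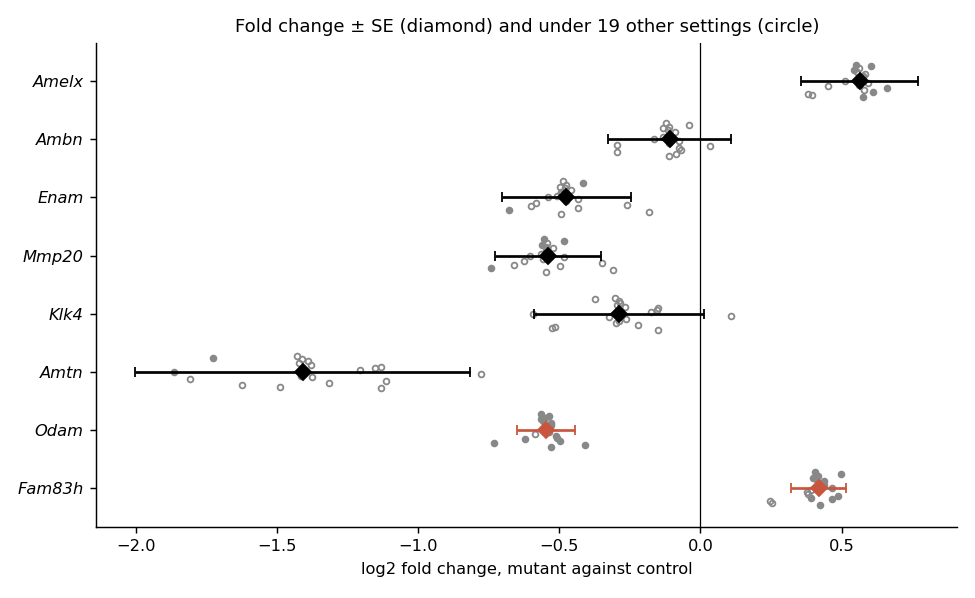
Diamonds give the log2 fold change of each gene, mutant against control, with its SE as a bar, red where edgeR's adjusted p was under 0.05, and circles give 19 other settings, filled where called. *Odam* stays between -0.73 and -0.41 and *Fam83h* between 0.25 and 0.50, while *Amtn* spreads from -1.86 to -0.78.

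Fold changes in these libraries moved with transcript GC content and length, and both differ between the members. Genes with GC content within 2 percentage points and a log2 length within 0.5 of *Amelx* (264 genes) had a median log2 fold change of 0.22, those like *Enam* (975 genes) one of -0.28, those like *Mmp20* (931 genes) one of -0.21 and those like *Fam83h* (260 genes) one of 0.20. For *Odam* the median of such genes was -0.057, for *Ambn* -0.020 and for *Amtn* 0.048. Genes like *Klk4* (528 genes) had a median of 0.25, whereas *Klk4* itself was at -0.29. With an offset for GC content and length, chosen after seeing the data, *Amelx* had a log2 fold change of 0.40, *Enam* -0.18, *Mmp20* -0.31, *Fam83h* 0.25 and *Odam* -0.41. *Klk4*, *Amtn* and *Ambn* were then at -0.53, -1.49 and -0.087. Under that offset *Odam* was still called (edgeR, adjusted p = 0.018) and *Fam83h* was not (adjusted p = 0.11).

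Ratios between members within a library do not depend on how libraries are scaled. The count ratio of *Amelx* to *Ambn* was 1.46, 1.45 and 1.46 in controls and 2.15, 2.52 and 2.39 in mutants. It varied little among controls, and every mutant exceeded them. The ratio of *Amelx* to *Enam* was 4.84, 4.67 and 4.76 in controls and 9.80, 12.4 and 8.18 in mutants. The ratio of *Ambn* to *Enam* was 3.31, 3.22 and 3.26 in controls and 4.56, 4.90 and 3.43 in mutants, so that mutant library 3 came close to the controls. For none of these 3 ratios did the groups overlap. Against all other tested genes, the ratio of *Amelx* did not overlap for 61.4%, that of *Enam* for 50.2% and that of *Ambn* for 28.2%. Nothing particular to these pairs is read from the lack of overlap.

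In contrast, the ratio of *Enam* to *Mmp20*, a matrix protein and the protease that cuts it, was 19.2, 18.9 and 19.6 in controls and 20.6, 19.1 and 20.3 in mutants. The groups overlapped, with a log2 difference of 0.056. Over all 6 libraries the log2 ratio had an SD of 0.051. *Mmp20* ranked 10 of 15048 genes by the steadiness of its ratio to *Enam*, as *Enam* ranked 13 for *Mmp20*. By the same measure for *Enam*, *Odam* ranked 2453, *Ambn* 2869 and *Amelx* 11845. The pair was the steadiest of the 28 pairs of members in these same data, and ratios were not among the planned comparisons. The steadiest ratios were to genes outside the members, with an SD of 0.037 for *Enam* and 0.012 for *Mmp20*. The difference in log2 fold change between *Enam* and *Mmp20* ranged from 0.044 to 0.12 over the settings. It was largest with the offset for GC content and length. These values are descriptions over 6 libraries.

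Of the 28 ratios between members, 11 did not overlap between the groups, and the smallest exact permutation p of 0.1 became 0.25 after Benjamini-Hochberg adjustment over the 28. As a background, the ratio of *Amelx* to each other tested gene did not overlap for 61.4% of genes, that of *Enam* for 50.2%, that of *Ambn* for 28.2% and that of *Mmp20* for 57.5%. The same share was 9.14% for *Klk4*, 7.89% for *Amtn*, 64.3% for *Odam* and 56.7% for *Fam83h*. With these shares as background, nothing particular to the members is read from the 11 ratios. The difference in log2 fold change between *Amelx* and *Ambn* ranged from 0.48 to 0.75 over the settings, and that between *Amelx* and *Enam* from 0.58 to 1.18, each lowest with the offset for GC content and length. That between *Ambn* and *Enam* was 0.37, and 0.10 with this offset.

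**Figure D4:**
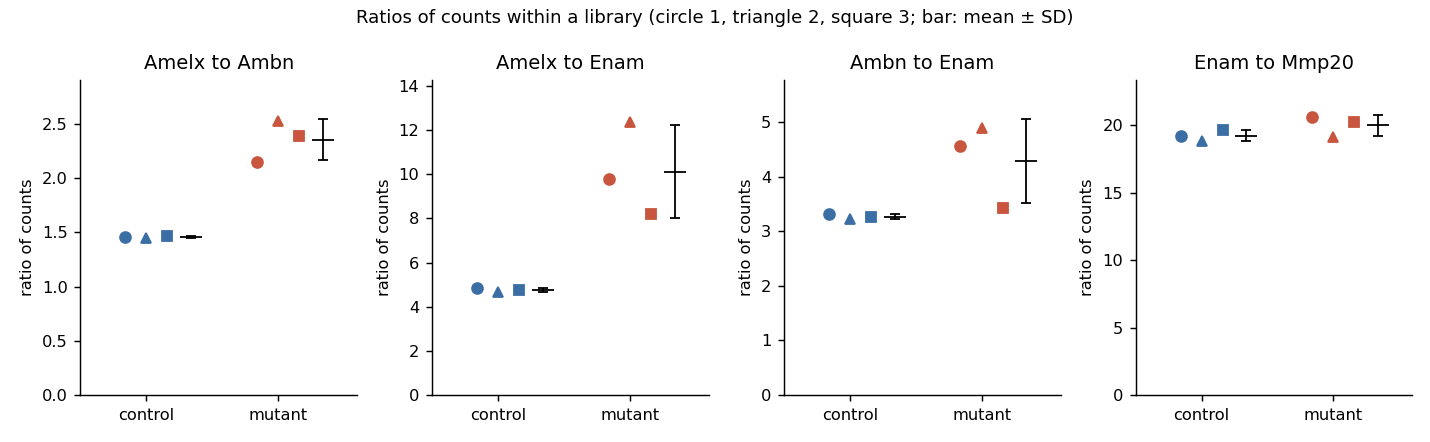
Each panel gives a ratio of estimated counts within a library, on a linear axis from 0, for 3 control (blue) and 3 mutant (red) libraries with the mean ± SD as a bar. *Amelx* to *Ambn* is 1.45 to 1.46 in controls and 2.15 to 2.52 in mutants, whereas *Enam* to *Mmp20* stays between 18.9 and 20.6 in both groups.

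Other genes of enamel formation, from a list of 33 written by hand, were tested in the same fit, and 31 passed the filter (*Slc26a3* and *Cldn16* did not). In this list 3 rose and 0 fell, against 10.4% of all genes called higher and 9.84% called lower, and 21 of the 31 estimates were positive, with a median log2 fold change of 0.12. *Tuft1*, which encodes tuftelin of the enamel organ, measured 15.3, 10.9 and 11.9 CPM in controls and 19.2, 20.8 and 18.5 CPM in mutants (log2 fold change 0.62; edgeR, adjusted p = 0.022). *Msx2*, a homeodomain regulator of ameloblasts, rose from 160, 177 and 167 CPM to 235, 201 and 220 CPM (0.38; edgeR, adjusted p = 0.042). *Slc5a8*, a monocarboxylate transporter, was called near the lower end of detection, with 0.34 to 0.44 CPM in controls and 1.66, 0.49 and 1.63 CPM in mutants (1.66; edgeR, adjusted p = 0.041). Of the 13 relatives in the phosphoprotein gene family, 8 were tested and 1 rose, *Spp1* (osteopontin), from 11.3 to 19.6 CPM in controls to between 24.2 and 55.2 CPM in mutants (log2 fold change 1.23; edgeR, adjusted p = 0.039). The median of these 8 was -0.029.

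Markers of the dental epithelium, the tissue that holds the ameloblasts, were detected at widely different levels, from a mean of 0.162 CPM for *Cldn7* to 1921 CPM for *Krt5*. *Krt5* and *Krt14*, keratins of its basal layer, lay between 1625 and 2213 and between 855 and 1341 CPM. Of 22 markers, 0 were called by edgeR's quasi-likelihood test, 7 had an unadjusted p under 0.05, and DESeq2 called 2 and limma voom 8. Their median log2 fold change was 0.25, with 17 of 22 positive, and those with small p-values in edgeR's test included *Esrp1* (0.29; adjusted p = 0.056) and *Fermt1* (0.31; adjusted p = 0.077). Their summed level was 6954, 5446 and 5722 CPM in controls and 6589, 6246 and 7539 CPM in mutants, with overlap (exact permutation test, two-sided p = 0.3).

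Set against this summed epithelial level, *Enam*, *Mmp20* and *Odam* were lower and *Fam83h* higher in all mutants than in all controls. The share of all genes without overlap was not computed on this scale, so nothing particular to the members is read from it. *Odam* amounted to 0.0296, 0.0385 and 0.0343 of the epithelial sum in controls and to 0.0201, 0.0214 and 0.0202 in mutants. *Amelx* overlapped on this scale, at 12.7, 18.2 and 16.7 times the sum in controls and 24.3, 19.6 and 18.0 times in mutants. With libraries scaled to these markers, a choice made after seeing the data, the median of all genes moved to -0.17 and the calls split into 913 higher and 2608 lower genes, against 2003 and 1903. *Enam*, *Mmp20* and *Odam* were then called lower (edgeR, adjusted p = 0.034, 0.024 and 0.0098) and *Fam83h* was not called (adjusted p = 0.29).

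**Figure D5:**
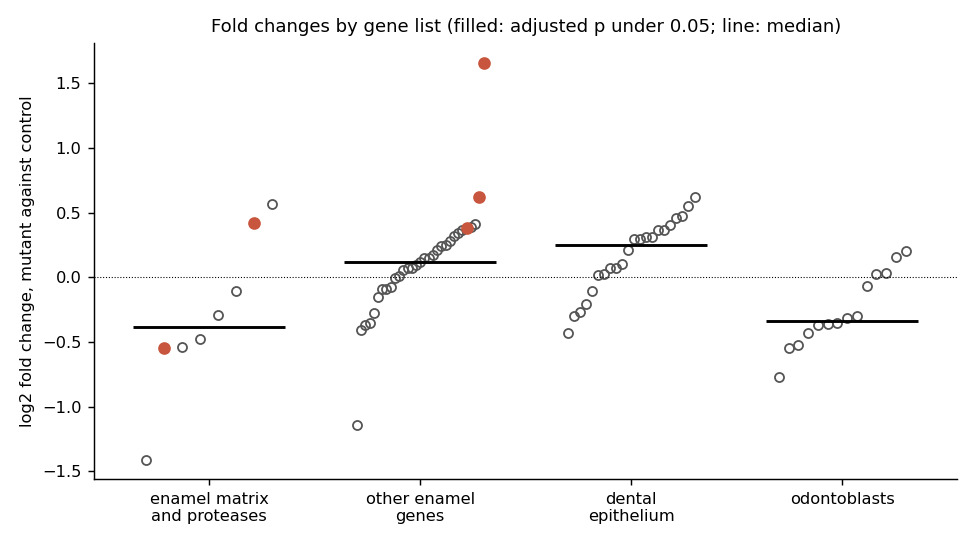
Points give the log2 fold change, mutant against control, of each tested gene in 4 lists, filled where edgeR's adjusted p was under 0.05, with the list's median as a line. The medians are -0.38 for the 8 members, 0.12 for 31 other enamel genes, 0.25 for 22 dental epithelium markers and -0.33 for 14 odontoblast genes.

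Genes listed for odontoblasts, the dentin-forming cells of the mesenchyme, were abundant too, although bone cells express several of them and *Bglap* and *Bglap2* also stand in the list for bone cells. *Dspp*, the main dentin matrix gene, had 2909, 7979 and 5218 CPM in controls and 6396, 2515 and 4151 CPM in mutants. The 14 listed genes had a median log2 fold change of -0.33, and 0 were called by edgeR, with 1 at an unadjusted p under 0.05 and 1 called by DESeq2 and 1 by limma voom. The smallest p-values belonged to *Runx2* (-0.52; adjusted p = 0.078), *Sp7* (-0.32; adjusted p = 0.22) and *Smpd3* (-0.37; adjusted p = 0.24) in edgeR's test. The summed level of 21461, 61879 and 44827 CPM in controls and 48598, 18703 and 25755 CPM in mutants was lowest in mutant library 2, the library in which *Ambn*, *Enam* and *Mmp20* were lowest. *Col1a1* and *Col1a2* made up most of this sum, with control means of 24927 and 10020 CPM against 42722 CPM for the list. Among controls the sum was lowest in library 1, as was every member apart from *Odam* and *Fam83h*. The part of odontoblast content in these differences was not tested.

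Some markers of other tissues and cell types also differed between the groups, and their part in the members' differences was not tested. Of 9 tested skeletal muscle genes, 8 fell by edgeR's test, with *Acta1* at -2.78, *Ckm* at -4.32, *Myh8* at -4.75, *Tnnt3* at -2.05, *Mylpf* at -1.80, *Ttn* at -2.40, *Tnni2* at -1.61 and *Myh3* at -3.71 on the log2 scale, and limma voom called 2 of them. The summed level of the list was 25.3, 42.4 and 12.6 CPM in controls and 3.74, 4.68 and 5.13 CPM in mutants. Of 7 red blood cell genes, *Hba-a1* and *Alas2* fell, and the summed level was 784 to 1331 CPM in controls and 245 to 942 CPM in mutants. Among 7 leukocyte genes *Tyrobp*, *Fcer1g* and *Cd52* rose and *Adgre1* fell, among 7 endothelial genes *Egfl7* rose, and among 7 tested genes of bone cells *Sost* fell. The summed levels of these 3 lists overlapped, at 69.6 to 87.8 against 64.8 to 93.1 CPM, 192 to 248 against 198 to 235 CPM and 616 to 963 against 672 to 1029 CPM.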

How the data were processed

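Single-end reads of 75 cycles were aligned to mm10 by the authors, with TopHat according to the methods, whereas the submitters' processing notes list STAR 2.6.1d and Partek without saying what each did. The counting program, its use of strand and its annotation are not given in the sources used here. Estimated counts of each gene were deposited by the authors, not all of them whole numbers, together with a normalized signal that equals the count plus 1, multiplied by a factor for each library, without division by gene length. The count table held 6 further columns of samples, which were not used.

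Here, estimated counts were rounded to whole numbers, as the design had assumed whole counts, and were filtered with filterByExpr, scaled by TMM and compared with edgeR's quasi-likelihood test, adjusting p-values by the Benjamini-Hochberg method (R 4.3.3, edgeR 4.0.16, limma 3.58.1, DESeq2 1.42.0, statmod 1.5.0). The fit covered 19330 genes. CPM are TMM-scaled, and a prior count of 2 was added for the log2 CPM of permutation tests. The normalized signal served only limma, with a variance trend at pseudocounts of 1 and 0.1 and without one at a pseudocount of 1. Libraries differed within each group by more than sampling noise. Counting limits cover counting error only.

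The members and lists were chosen with earlier results of these data known. The genes named are the members, *Ror2*, the called genes of each list (or the 3 with the smallest p), the 5 genes most correlated with the members, and genes overlapping a member, of which 1 list gene is not reported here. *Krt5*, *Krt14*, *Cldn7*, *Dspp*, *Col1a1*, *Col1a2*, *Panx3*, the 2 untested enamel genes and *CT010467.1* were named after their values were seen. Alternatives were other tests, scalings, filters, a replicate block and leaving out each library.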

Additional observations from a re-analysis of the deposited data

How the results depend on the processing

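Of the 8 members, 2 were called, and the number was 4 with DESeq2's Wald test, 6 with limma voom with sample quality weights, 4 with library size alone and 1 with the offset for GC content and length. The same numbers for other enamel genes (3) were 5 with DESeq2, 10 with voom, 5 with library sizes computed without the members and *CT010467.1*, a transcript holding 1.17% to 9.41% of the counts of a library, and 1 with scaling to dental epithelium markers. For dental epithelium markers (0) they were 2 with DESeq2, 8 with voom, 1 with a mean of at least 1 CPM, 2 with library sizes without the members and *CT010467.1*, and 2 with the offset. Over all genes (3906), voom called 6339. Leaving out 1 library gave 872 to 5001 genes (872 without control library 3, 910 without control library 2 and 2404 without mutant library 1), 0 to 3 members, 0 to 6 other enamel genes and 0 to 4 epithelium markers, and no member or other enamel gene was called without control library 2 or 3. Fewer libraries enter those fits. The sign turned for *Ambn* without mutant library 2 and for *Klk4* without control library 2, with log2 fold changes of -0.30 to 0.032 and of -0.59 to 0.11 over the libraries left out. With limma-trend on the normalized table, *Amelx* had an adjusted p of 0.69 and 0.88 at pseudocounts of 0.1 and 1, and 0.020 without a variance trend. The cause of these differences was not tested. With the sample index of the labels as a replicate block, 2013 genes were called. Among them were 1 member (*Odam*), 1 other enamel gene (*Tuft1*) and 0 epithelium markers. Same-numbered libraries did not deviate together (correlations of -0.10, -0.080 and -0.0038). With 3 libraries per group, such correlations cannot show whether libraries were paired. The paper's methods speak of 3 pairs of samples without saying which libraries form a pair. Library sizes without the members, scaling to epithelium markers, the offset and limma without a variance trend were chosen after seeing the data. Summing members with genes that share their sequence gave no value, as no such gene was found. The lowest count of a member in any library was 721.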

Other observations

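The 5 genes whose log2 CPM over the 6 libraries most resembled the mean standardized level of the 8 members were *Entpd7* (Pearson r = 0.999), *Opcml* (0.995), *Pdp2* (0.995), *Thsd4* (0.993) and *Phex* (0.989), among 15041 genes searched, of which 463 had an r over 0.9. With 6 libraries, this likeness is a description. The mean standardized level of the members, in which each gene weighs the same, was highest in control library 2 (0.64) and lowest in mutant library 2 (-0.72). *Amelx* and *Fam83h* were higher in all mutants and *Enam*, *Mmp20* and *Odam* lower, so their group differences partly cancel in this mean. The summed CPM of the members was instead highest in mutant library 1 (252461) and lowest in control library 1 (168809). *Phex*, an endopeptidase of odontoblasts and osteoblasts, measured 156, 539 and 373 CPM in controls and 304, 101 and 219 CPM in mutants, lowest in mutant library 2. Of the 5, 0 were called by edgeR's quasi-likelihood test.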
